A study of Mus musculus with 12 samples.

Results

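The mouse Zfp genes named by a number encode zinc finger proteins, and 311 of them were followed through the response of macrophages to monophosphoryl lipid A. They were all protein-coding genes whose symbol is Zfp followed by digits alone, other than Zfp36, a messenger RNA decay factor, and that were listed in each of 3 comparison tables, out of 20884 genes listed in all 3. A further 11 such genes were listed in some tables only and are not counted here, which makes 322 in at least 1 table. Monophosphoryl lipid A (MPLA) is a detoxified form of bacterial lipopolysaccharide and a ligand of Toll-like receptor 4.

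The cells were bone marrow-derived macrophages of C57BL/6 males, 8 to 16 weeks old, cultured over 7 days with M-CSF, the growth factor of macrophages, at 10 ng/mL and with 10% serum. M-CSF stayed in the cultures of all groups. There were 3 RNA-seq libraries of polyadenylated RNA for cells after 4 h of MPLA, 3 for cells after 24 h of MPLA, 3 for cells taken 3 d after MPLA priming had ended, and 3 for control cells without MPLA. The labels do not give the length of priming of the 3 d group, and do not state whether replicate libraries were made from different mice or dishes, so that p-values cover only the spread of these libraries, possibly a technical one. The growth notes also name MyD88-/- and TRIF-/- males, but every library was labelled C57BL/6. Each MPLA group was compared by the authors with the same 3 controls, and their tables hold fold changes and p-values per gene but no value per library. The labels give these controls no time point, so effects of MPLA and of any difference in culture time cannot be told apart. All 10 macrophage markers checked, among them Adgre1, Csf1r and Cd68, were listed and tested at every time, and their levels could not be read from fold changes. With DESeq2 7 of the 10 were higher and 2 lower at 4 h, 5 and 5 at 24 h, and 6 and 4 at 3 d, and with edgeR 4 were higher and 6 lower at 4 h. Adgre1 had 1.22, 2.15 and 1.17 on the log2 scale, MPLA over control, and Mrc1 had -0.60, -5.67 and -1.31 in the authors' deposited tables. Of 35 markers of other cell types, 23 were listed at all times, with 6 higher and 3 lower of 20 tested at 4 h, 4 and 8 of 17 at 24 h, and 3 and 4 of 15 at 3 d. The stromal gene Dcn had 3.65, 6.86 and 4.70, the B cell gene Ighm -1.75, -8.98 and -6.42, the erythroid gene Epor -5.38, -5.60 and -2.93, the T cell gene Lck 7.19 at 4 h, and the mast cell genes Kit and Cpa3 -4.30 and -3.97 at 24 h. Markers of the same type did not always move alike. Col1a1 and Col1a2 had no DESeq2 call at any time. Cd79b was lower at 24 h (-1.54) and higher at 3 d (0.47). Cd2 had -1.63 and no call at 4 h. Of the dendritic cell genes, Ccr7 and Xcr1 had 7.18 and 3.93 at 4 h. Itgax had 0.57, -0.74 and -2.32 at 4 h, 24 h and 3 d, and Zbtb46 had 1.19, -1.50 and -0.11, the last without a call. Flt3 had no call at 4 h and was not tested later. Of the neutrophil genes, Camp was higher at 24 h (3.49) and 3 d (1.43), and S100a8 had no call at any time. The part of other cell types in the members' results was not tested.

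A C2H2 zinc finger is a short loop that folds around a zinc ion, held by cysteine and histidine side chains, and strings of such fingers read DNA. Many members carry a KRAB box in front of the fingers. A KRAB box recruits the corepressor Trim28 (KAP1), which brings the histone methyltransferase Setdb1 and heterochromatin proteins to the bound site, chiefly endogenous retroviruses and imprinted regions. KRAB genes arose by tandem duplication and lie in arrays on the chromosomes, whereas members without a KRAB box include promoter-binding factors, chromatin adaptors and RNA-binding proteins.

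Most members had less RNA relative to other genes after 4 h of MPLA. In the authors' deposited 4 h table, 47 of 304 tested members were higher and 183 were lower than in controls (15.5% and 60.2%, DESeq2 adjusted p under 0.05). Among all 17523 genes tested there, 31.8% were higher and 31.0% lower, and among the 13611 protein-coding genes 36.9% were higher and 36.3% lower. The median log2 change of the tested members, MPLA over control, was -0.73, against -0.04 for all tested genes. With changes of at least 2-fold required, 25 members were higher and 109 lower (8.22% and 35.9%), against 18.1% and 18.5% of all tested genes. The plot of cumulative distributions shows the members' curve to the left of that of protein-coding genes over nearly its whole range. In these bulk libraries fewer cells of a kind and less RNA per cell cannot be told apart.

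**Figure D1:**
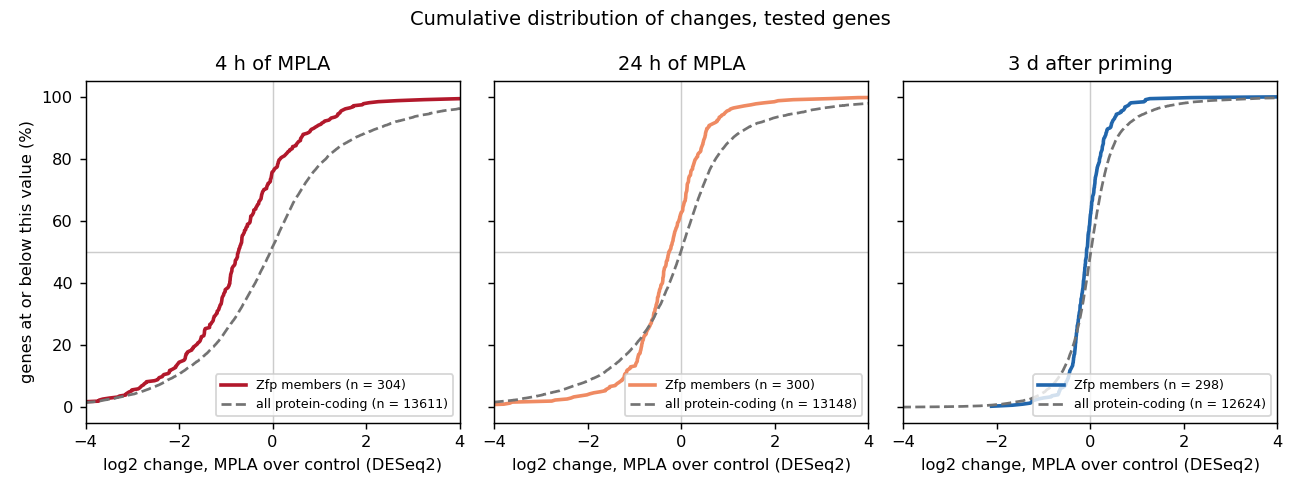
Cumulative share of tested genes (vertical axis, percent) at or below each log2 change, MPLA over control from DESeq2 (horizontal axis, drawn from -4 to 4), for Zfp members (solid) and all protein-coding genes (dashed) at 4 h, 24 h and 3 d after priming. The members' median lies at -0.73, -0.26 and -0.08; with edgeR's scaling every median is lower still, at -1.67, -0.68 and -0.21.

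The scaling between libraries moves the level of all genes together. The median of all tested genes was -0.97 on the log2 scale at 4 h in the authors' deposited edgeR columns, -0.46 at 24 h and -0.15 at 3 d, against -0.04, -0.05 and -0.02 with DESeq2. Relative to those medians, the median member stood at -0.69 with DESeq2 and -0.70 with edgeR at 4 h. The edgeR columns called 23 members higher and 264 lower at 4 h (7.40% and 84.9%), against 13.5% and 50.1% of all genes listed. With the baySeq error rate under 0.05, 42 members were higher and 203 lower at 4 h (13.5% and 65.3%), against 23.3% and 30.5% of all genes. The baySeq score has no direction, so the sign of the DESeq2 change was used with it here and below. All 183 members lower with DESeq2 were also lower with edgeR, whereas of the 47 higher ones 23 were higher with edgeR, 7 had no call and 17 were called lower. Members described below by name as the highest and lowest had the same call with both tools unless stated otherwise.

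**Figure D2:**
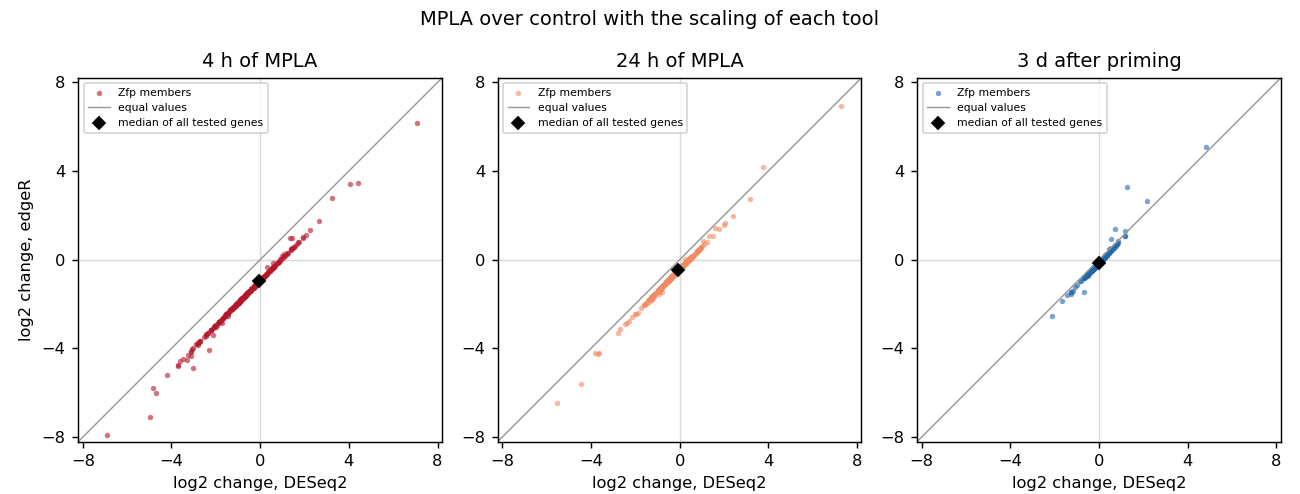
Log2 change of each tested member, MPLA over control, from DESeq2 (horizontal axis) and edgeR (vertical axis) at the 3 times, with the line of equal values and the median of all tested genes (diamond). Most points run parallel to the line, below it by about as much as the diamond. Members slightly above 0 with DESeq2 therefore lie below 0 with edgeR at 4 h and 24 h. Zfp819 is an exception and lies above the line at 24 h and 3 d, so that the tools differ there by more than a common shift.

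The skew was smaller at the later times. At 24 h, 62 of 300 tested members in the authors' deposited table were higher and 125 lower (20.7% and 41.7%), against 32.4% and 32.2% of all tested genes, and the median member changed by -0.26 against -0.05 for all genes. At least 2-fold changes were seen in 11 higher and 35 lower members (3.67% and 11.7%), against 12.8% and 16.4% of all tested genes. With edgeR 29 members were higher and 221 lower at 24 h (9.32% and 71.1%), against 16.2% and 41.8% of all genes listed, and with baySeq 39 were higher and 155 lower (12.5% and 49.8%), against 19.6% and 31.3%. At 3 d, 44 of 298 tested members in the authors' deposited table were higher and 79 lower (14.8% and 26.5%), against 29.5% and 25.8% of all tested genes, and the median member changed by -0.08 against -0.02. With DESeq2 the share of members lower at 3 d is thus near that of all genes, whereas with edgeR it is above it. At 3 d at least 2-fold changes were seen in 6 higher and 8 lower members (2.01% and 2.68%), against 6.38% and 5.20% of all tested genes. With edgeR 30 members were higher and 156 lower at 3 d (9.65% and 50.2%), against 15.5% and 27.7% of all genes listed. With the baySeq limit and the DESeq2 sign 17 were higher and 13 lower (5.47% and 4.18%), against 11.6% and 4.84% of all genes. At 3 d the larger number was thus that of higher members under the baySeq limit, and that of lower members with DESeq2 and edgeR. The 3 comparisons share their controls, and no test of the difference between times could be made.

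Zfp811 had the largest increase of all members. Its log2 change in the authors' deposited tables was 7.08 at 4 h, 7.26 at 24 h and 4.81 at 3 d, which is 136-fold, 154-fold and 28-fold (DESeq2 adjusted p = 1.36e-141, 3.52e-159 and 2.98e-85). The gene (ENSMUSG00000055202) lies at chr17:32795676-32809931 on the minus strand of GRCm38 and encodes a KRAB box and 14 fingers. No bases of its exons overlap a gene on the other strand, and 0.535% of its 50-base windows recur in transcripts of another gene. Its 250 bases before the transcription start in RefSeq, GRCm38.p6, are shown because it is the member that changed most, and they hold none of the 5 motifs described further below.
Zfp811 (chr17:32809932-32810181, minus strand): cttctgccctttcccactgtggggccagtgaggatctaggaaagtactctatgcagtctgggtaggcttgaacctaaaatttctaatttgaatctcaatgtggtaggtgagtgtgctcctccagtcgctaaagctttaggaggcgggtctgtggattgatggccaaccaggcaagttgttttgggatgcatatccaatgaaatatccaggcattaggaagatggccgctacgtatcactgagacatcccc

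Zfp819 and Zfp719, 2 further KRAB genes and neighbours among the members on chromosome 7, rose at all 3 times. Zfp819, whose product has been tied to silencing of retroelements in stem cells, had log2 changes of 3.25, 3.78 and 1.27 at 4 h, 24 h and 3 d in the authors' deposited tables (adjusted p = 0.0176, 0.000258 and 0.0163). Its size is uncertain, as the edgeR column gave 2.79, 4.17 and 3.27. Zfp719 had log2 changes of 1.94, 2.39 and 1.18 in the authors' deposited tables (adjusted p = 1.61e-54, 1.60e-116 and 4.14e-27). Zfp558, also with a KRAB box, had 2.26, 3.16 and 0.79 there, and Zfp324 had 1.21 and 1.78 at 4 h and 24 h and no call at 3 d (-0.20). For Zfp811, Zfp819, Zfp719, Zfp558 and Zfp324 the value at 24 h was above that at 4 h.

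Other members were highest at 4 h. Zfp800, a gene without a KRAB box, had log2 changes of 4.39, 2.07 and 0.74 in the authors' deposited tables, a 21-fold increase at 4 h. Zfp281, a factor that binds GC-rich promoters and is known from embryonic stem cells, had 2.66, 1.99 and 1.18 there. Zfp263, a promoter-binding factor, had 2.07, 0.54 and 0.87. Each of these 3 genes was called higher at every time by DESeq2 and edgeR, and passed the baySeq limit each time. Zfp37, expressed in developing germ cells, had 4.05 at 4 h (adjusted p = 0.000127) and had no adjusted p at 24 h or 3 d.

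Zfp395 fell furthest among the members with reads in both groups. In the authors' deposited tables it changed by -6.93 at 4 h, -3.80 at 24 h and -1.44 at 3 d on the log2 scale, so that it stood 122-fold, 13.9-fold and 2.72-fold below controls (DESeq2 adjusted p = 2.24e-94, 1.24e-269 and 3.56e-132). It lies at chr14:65358389-65398930 on the plus strand, and its human counterpart binds the promoter of the Huntington's disease gene. Zfp704, its close relative, had -4.82, -2.70 and -0.84 in the authors' deposited tables (adjusted p = 1.35e-209, 5.94e-257 and 1.84e-59), and 16.6% of its exonic bases lie opposite the gene C030034L19Rik. Both relatives were thus lower at every time, with changes that were smaller at each later time.

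Further members with large decreases kept to that order of times. The authors' deposited tables gave -4.68, -2.36 and -1.18 for Zfp791, -4.18, -2.44 and -0.53 for Zfp667, both KRAB genes, and -3.72, -2.77 and -2.11 for Zfp618. Zfp618 codes for a partner of Uhrf2 that binds hydroxymethylated DNA, and it was the member with the lowest value at 3 d. Zfp652, whose human counterpart works with the corepressor CBFA2T3, had -3.63, -1.63 and -0.50 there, with 11.9% of its windows shared with another gene. Zfp882 had -3.71 and -1.53 at 4 h and 24 h and no call at 3 d (-0.20). Zfp934, of whose windows 29.5% recur elsewhere, was lower only in the 4 h comparison (-3.49), with values of 0.02 and 0.33 and no call at the later times. Zfp300 was listed at 0 after 4 h of MPLA, so that no fold is given, and was called lower (adjusted p = 0.000489). At 24 h it had a value of -1.96 and was again called lower.

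A smaller number of members had their lowest value at 24 h. Zfp651 changed by -2.70, -5.51 and -1.66 in the authors' deposited tables at 4 h, 24 h and 3 d and was called lower each time. Zfp30, a KRAB gene tied by genetic mapping in mouse airways to the chemokine Cxcl1, had -3.14, -3.67 and -1.25. Zfp541, a meiosis factor of germ cells, had -1.54, -3.62 and -0.67. Zfp365 had no DESeq2 call at 4 h (-0.87, though called lower with edgeR) or at 3 d (0.10) and was lower at 24 h with -4.43.

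Some members were called by DESeq2 in opposite directions or only at 3 d. Zfp697 was higher at 4 h (1.40) and lower at 24 h and 3 d (-1.40 and -1.24) in the authors' deposited tables, with 10.5% of its windows shared. Zfp462, a large chromatin-associated protein with 34 fingers, was called by DESeq2 only in the 3 d comparison (2.15, adjusted p = 1.66e-07), with values of 0.98 and 1.34 before. Zfp286 and Zfp827 were likewise higher at 3 d, by 1.15 and 0.84. Their earlier DESeq2 values, -2.15 and -1.23 for Zfp286 and 0.10 and -0.88 for Zfp827, were not called. The lowest members at 3 d, beside those named, were Zfp69 (-1.28), Zfp697 and Zfp113 (-1.10) in the authors' deposited table.

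**Figure D3:**
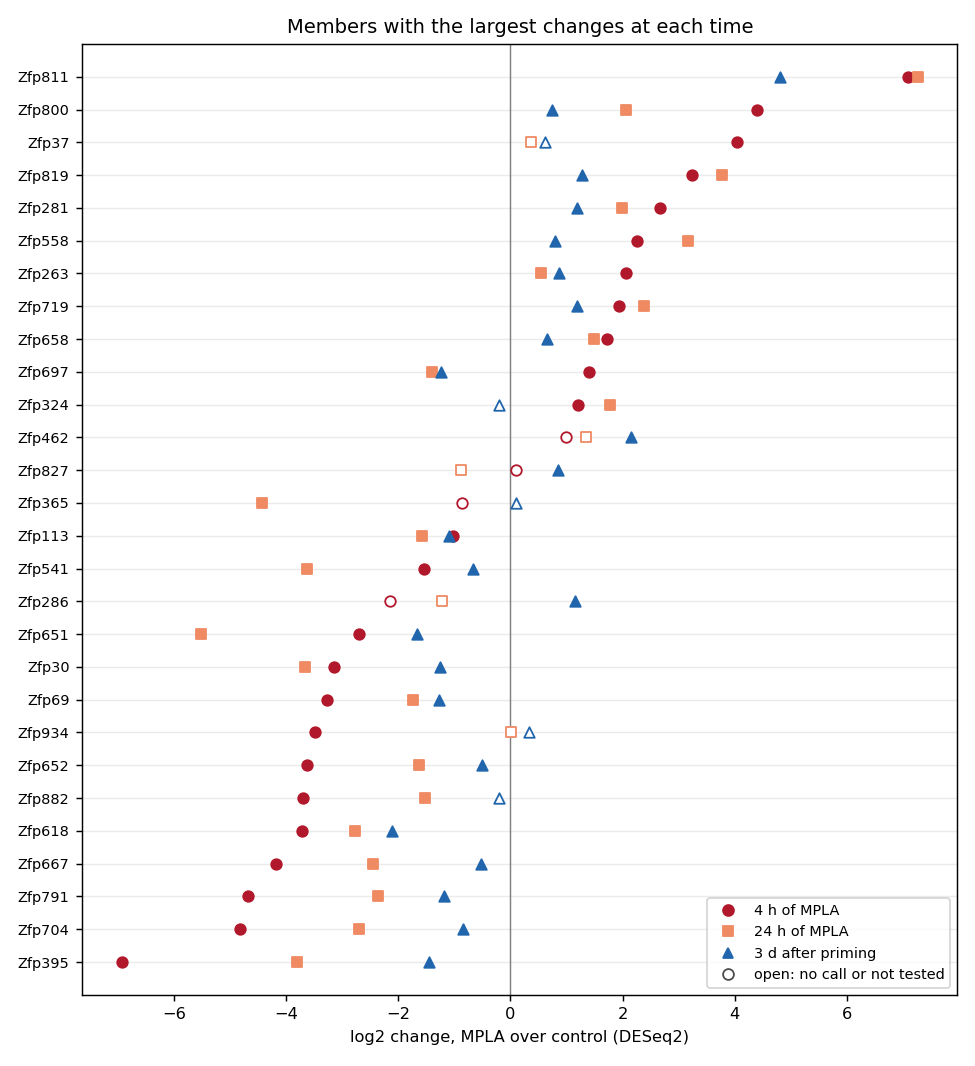
Log2 change, MPLA over control from DESeq2, of the 8 highest and 8 lowest members at each time, 1 gene per line in order of its 4 h value; circles are 4 h, squares 24 h and triangles 3 d after priming, and open symbols carry no DESeq2 call. Zfp811 stands apart at the top with 7.08, 7.26 and 4.81, and Zfp395 at the bottom with -6.93, -3.80 and -1.44.

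Proteins with and without a KRAB box were then compared. A profile search of the translated coding sequences found a KRAB box in 186 members and none in 124, and Zfp125 had no coding sequence in the annotation used. At 4 h, 22 of 183 tested KRAB members in the authors' deposited table were higher and 116 lower (12.0% and 63.4%, median -0.90), and of 120 tested members without the box 25 were higher and 67 lower (20.8% and 55.8%, median -0.47). At 24 h the KRAB members had 32 higher and 73 lower of 180 (17.8% and 40.6%, median -0.28). Those without the box had 30 and 51 of 119 (25.2% and 42.9%, median -0.20), against 32.4% and 32.2% of all tested genes. At 3 d the counts were 17 and 44 of 179 with the box (9.50% and 24.6%, median -0.12). Without it they were 27 and 35 of 118 (22.9% and 29.7%, median -0.01), against 29.5% and 25.8% of all tested genes. With DESeq2 the share lower was thus larger with the box at 4 h and smaller at 24 h and 3 d, whereas the median was lower with the box each time. With edgeR, 162 of the 186 KRAB members and 101 of the 124 without the box were lower at 4 h, against 50.1% of all genes listed. In the same order 14 and 9 were higher, against 13.5% of all genes listed. At 24 h edgeR called 133 and 87 lower, against 41.8% of all genes listed, and at 3 d 100 and 55, against 27.7%. It called 16 and 13 higher at 24 h, against 16.2%, and 17 and 13 at 3 d, against 15.5%. The smaller share lower with the box at the later times was thus not seen with edgeR. These are counts without a test between the classes.

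Position in the genome overlapped with protein class. Members at most 1 Mb from the next, at least 3 in a row, formed 25 runs with 186 members in all, 147 of them with a KRAB box. At 4 h 120 of 185 tested run members were lower and 23 higher (64.9% and 12.4%, median -0.87). Outside runs 63 and 24 of 119 were (52.9% and 20.2%, median -0.47), against 31.0% and 31.8% of all tested genes. Split both ways, the share lower at 4 h was 63.0% for KRAB members in runs, 64.9% for KRAB members outside runs and 71.8% for members in runs without the box. For the 81 tested members with neither feature it was 48.1%, with a median of -0.22 and 21 members higher. That group, which holds most of the factors named below for their roles, stood nearest to the share of protein-coding genes. By number of fingers the medians at 4 h lay between -0.66 for members with 0 to 4 fingers and -0.83 for those with 10 to 14.

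**Figure D4:**
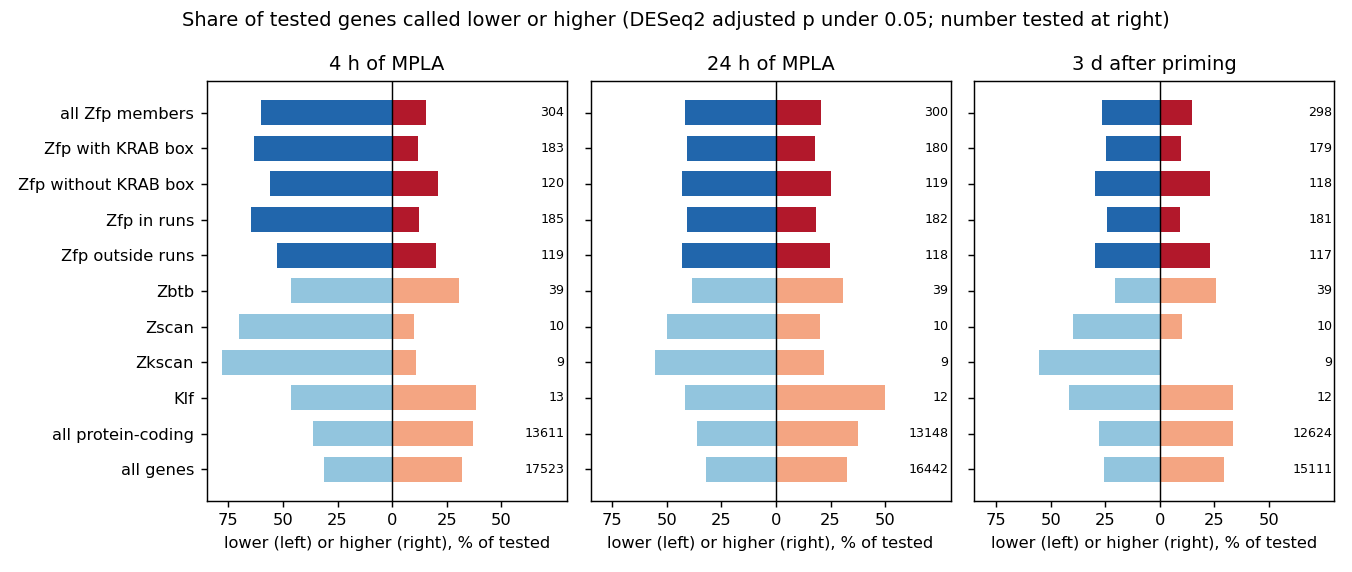
Share of tested genes called lower (left of 0) or higher (right of 0) at DESeq2 adjusted p under 0.05, in percent, for Zfp members and their classes (dark bars), other zinc finger families and all genes (pale bars), with the number tested at the right. At 4 h the bar of all Zfp members reaches 60.2% lower and 15.5% higher, against 36.3% and 36.9% for protein-coding genes; with edgeR fewer members are higher (23) and more are lower (264).

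The run of 20 KRAB genes at chr17:21008903-23599487 differed between the comparisons in the counts of its members. At 4 h 2 of its 20 members were higher and 11 lower (10.0% and 55.0%, median -0.88) in the authors' deposited tables with DESeq2. At 24 h 11 were higher and 1 was lower (55.0% and 5.00%, median 0.28). Of all tested genes, 31.8% were higher and 31.0% lower at 4 h, and 32.4% and 32.2% at 24 h. With edgeR 1 was higher and 18 lower at 4 h, and 5 were higher and 8 lower at 24 h (medians -1.83 and -0.13). Of all genes listed, edgeR called 13.5% higher and 50.1% lower at 4 h, and 16.2% and 41.8% at 24 h. Relative to the median of all genes the run stood at -0.84 and 0.34 with DESeq2, and at -0.86 and 0.33 with edgeR. Zfp677 had -1.53 at 4 h and 0.80 at 24 h there, Zfp40 -1.15 and 0.76, and Zfp946 -0.65 and 0.91, and these 3 genes were called lower and then higher by both tools. Zfp760 was the 1 member lower at both times, with -2.82 at 4 h and -0.98 at 24 h. At 3 d 1 member of the run was higher and 5 lower with DESeq2, with a median of -0.07. These were 5.00% and 25.0%, against 29.5% and 25.8% of all tested genes.

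Other runs were uniform or mixed. Of all genes tested at 4 h with DESeq2, 31.8% were higher and 31.0% lower. All 6 members of the run at chr15:75616679-76925448 were lower at 4 h by at least 2-fold, between -2.84 for Zfp41 and -1.09 for Zfp623 in the authors' deposited table. The 4 members of a run on chromosome 6, Zfp637, Zfp239, Zfp248 and Zfp9, were also all lower at 4 h, between -3.31 and -0.91. In the run of 11 on chromosome 17 that holds Zfp811, 8 members were lower at 4 h and 3 higher, namely Zfp811, Zfp952 (1.51) and Zfp871 (0.62, but -0.32 and lower with edgeR). Zfp799, one of its neighbours, had -0.87 there. In the run of 6 on chromosome 7 neighbours went in opposite directions. Zfp788, Zfp141 and Zfp715 had -1.21, -1.25 and -0.79 at 4 h, and the next genes in line, Zfp658, Zfp719 and Zfp819, had 1.73, 1.94 and 3.25. All 3 of the last genes were higher at 24 h and 3 d as well.

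**Figure D5:**
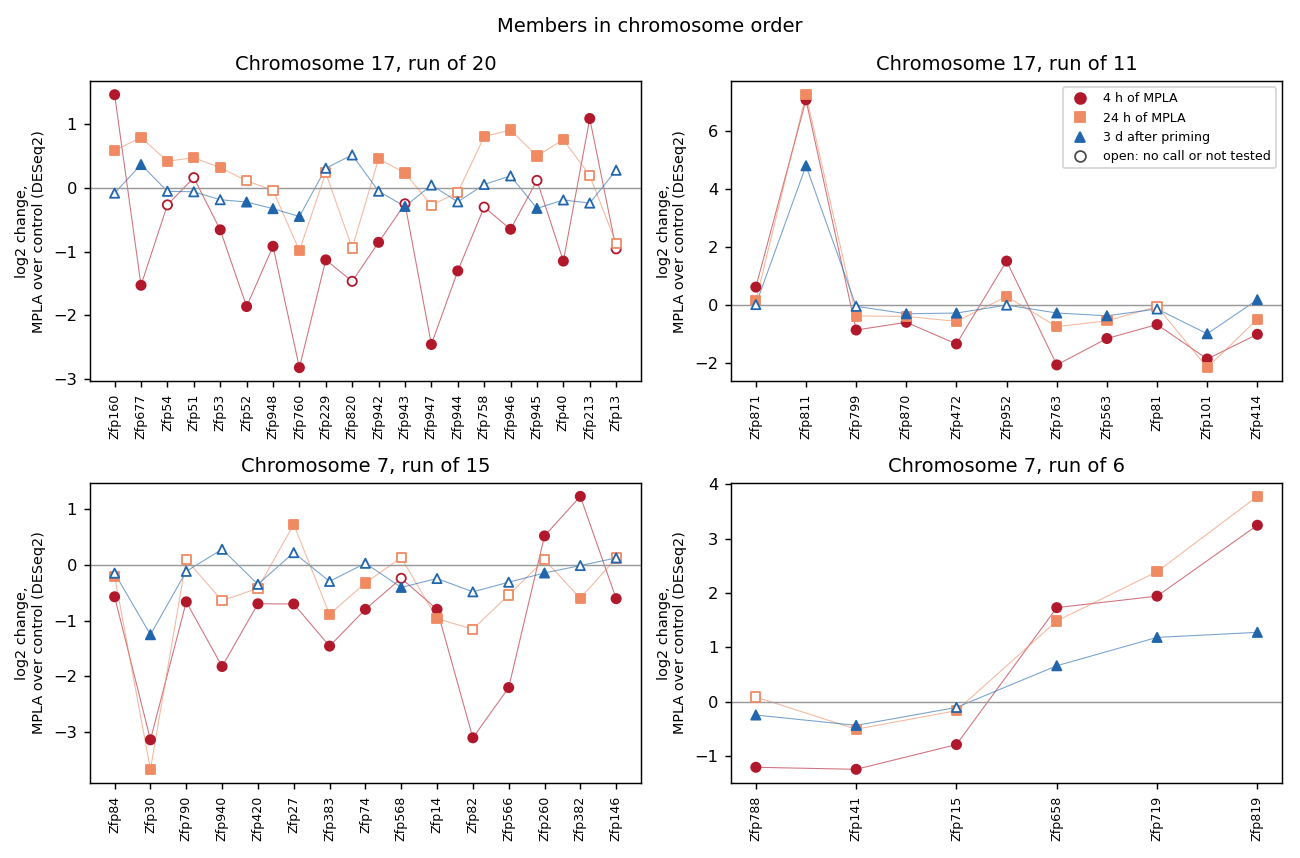
Log2 change, MPLA over control from DESeq2 (vertical axis, scales differ between panels), of members in chromosome order in 4 runs; circles are 4 h, squares 24 h and triangles 3 d after priming, and open symbols carry no call. In the run of 20 on chromosome 17 the 24 h points lie above the 4 h points for most genes (medians 0.28 and -0.88; with edgeR -0.13 and -1.83), and in the run of 11 only Zfp811 lies above 2.

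Members known for work on retroviruses and imprints were listed next. Of the 6 members with such a role, 1 was higher and 3 lower at 4 h, and 3 were higher and 0 lower of 5 tested at 24 h in the authors' deposited DESeq2 columns. With edgeR 1 was higher and 2 lower at 24 h. Zfp809, which silences retroviruses that use the proline tRNA primer site, had -0.75 at 4 h and 0.45 at 24 h (edgeR 0.03, no call). Zfp445, which keeps imprinted DNA methylated, had -0.47, 0.42 and 0.27 at the 3 times (edgeR 0.00 and no call at 24 h). Zfp568, a repressor of a placental Igf2 transcript, was lower in the 3 d comparison (-0.40) and had no DESeq2 call before. Zfp932, a silencer of endogenous retroviruses with 37.0% shared windows, had -1.34 at 4 h. Zfp708 shares 94.9% of its windows with another gene and had no call. The remaining gene of this list is Zfp819, described above.

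The partners of KRAB proteins had about as many higher as lower DESeq2 calls at 4 h, as had all tested genes. Of 25 such genes listed, 12 were higher and 11 lower at 4 h (48% and 44.0%, against 31.8% and 31.0% of all tested genes) in the authors' deposited DESeq2 columns, although with edgeR 4 were higher and 21 lower. At 24 h 14 were higher and 6 lower (56.0% and 24.0%, against 32.4% and 32.2%), and at 3 d 10 and 3 (40.0% and 12.0%, against 29.5% and 25.8%). With edgeR 6 were instead higher and 17 lower at 24 h and 8 and 13 at 3 d. Of all genes listed, edgeR called 13.5% higher and 50.1% lower at 4 h, 16.2% and 41.8% at 24 h, and 15.5% and 27.7% at 3 d. Trim28 had -0.41 at 4 h, 0.16 at 24 h and -0.03 (no call) at 3 d, with an edgeR value of -0.26 at 24 h. Setdb1 had -1.17, 0.23 and -0.21, Atf7ip, its cofactor, had -1.07, 0.21 and 0.37, and both had negative edgeR values at 24 h. Uhrf1 and Dnmt1, which copy DNA methylation when DNA is replicated, had -3.34 and -2.30 at 4 h, -1.31 and -0.02 (the second without a call) at 24 h, and 0.48 and 0.45 at 3 d, when both were called higher. Morc3, a chromatin ATPase, and Pphln1, a subunit of the HUSH silencing complex, had 2.02 and 1.79 at 4 h and were called higher at all 3 times.

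The balance of calls among chromatin and promoter factors depended on the tool. Of 13 such members, 6 were higher and 5 lower at 4 h in the authors' deposited DESeq2 columns (46.2% and 38.5%, against 31.8% and 31.0% of all tested genes). At 24 h 5 and 3 were (38.5% and 23.1%, against 32.4% and 32.2%), and at 3 d 7 and 3 (53.8% and 23.1%, against 29.5% and 25.8%). With edgeR 4 were higher and 8 lower at 4 h, 4 and 7 at 24 h, and 4 and 5 at 3 d. The edgeR shares of all genes listed were 13.5% and 50.1%, 16.2% and 41.8%, and 15.5% and 27.7% at these times. Zfp143, which activates many promoters through a motif treated below, had 1.11, 0.93 and 0.53 at 4 h, 24 h and 3 d, and was called higher each time by both tools (edgeR 0.18, 0.52 and 0.40). Zfp131, a BTB-domain factor, had 1.72, 0.97 and 0.21, the last without a call in edgeR. Zfp592 had 0.50 at 4 h with DESeq2 and was called lower with edgeR (-0.43), and Zfp148, which binds GC-rich promoters, had 0.21 and -0.73 in the same way. Zfp532, which lies on chromosome 18, had -3.07 at 4 h. Zfp217, a corepressor component, had -0.75, -0.59 and -0.33 and was called lower each time. Zfp687 and Zfp292 were lower at 4 h (-0.24 and -0.60) and had no DESeq2 call later. Zfp384 was called by DESeq2 only at 3 d (0.11, but -0.02 and no call with edgeR).

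Members that act on RNA or ribosomes had DESeq2 values between -0.66 and 0.63 other than Zfp207 at 4 h. Zfp207 (BuGZ), which binds microtubules and the checkpoint protein Bub3, had 1.66 at 4 h and 0.63 at 24 h in the authors' deposited tables and was called higher by both tools. Of the 8 members in that list, 1 was higher and 4 lower at 4 h, and 4 were higher and 3 lower at 24 h, with 1 and 4 by edgeR at 24 h. Zfp598, the ubiquitin ligase that marks collided ribosomes, had -0.66 at 4 h, and Zfp622, which matures the large ribosomal subunit, had -0.22 and -0.25 at 4 h and 24 h. Zfp106 was lower at all 3 times (-0.48, -0.47 and -0.12), and Zfp326 at 4 h and 24 h (-0.32 both times). Zfp638, Zfp346 and Zfp830 had no DESeq2 call at 4 h and were higher at 24 h by 0.47, 0.35 and 0.36, none of them called with edgeR (0.06, -0.07 and -0.05).

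Few members have a known place in innate or lymphocyte signalling. Zfp91, a ubiquitin ligase of the noncanonical NF-kappaB pathway, had 0.29, 0.59 and 0.34 at the 3 times in the authors' deposited tables, but at 4 h edgeR called it lower (-0.64). Zfp64, described as a co-activator of NF-kappaB in mouse macrophages, was lower at 4 h (-0.77), with values of -0.03 and 0.10 and no call later. Zfp318, which controls IgD in B cells, was lower at every time, with -0.41, -0.34 and -0.20. Zfp90 was also lower at every time, with -0.50, -1.33 and -0.32, and 79.5% of its exonic bases lie opposite the gene Gm26786. Among lineage factors, Zfp703 had -1.85, -1.12 and -0.49, and Zfp467 and Zfp516, both tied to fat cell formation, had -1.22 and -0.19 at 4 h. Zfp407 had 0.42 at 4 h with DESeq2 and was called lower with edgeR (-0.52). Zfp335 was higher at 24 h and 3 d by 0.35 and 0.25 (edgeR -0.07 without a call, and 0.13). Zfp366, Zfp423, Zfp750 and, of the stem and germ cell factors, Zfp296 had no DESeq2 call at any time or were not tested, and Zfp39 was lower at 24 h (-0.49).

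Genes of other zinc finger families, taken by symbol alone, were counted at 4 h. Among all genes tested there with DESeq2, 31.8% were higher and 31.0% lower. Of 39 Zbtb genes in the authors' deposited table, 12 were higher and 18 lower (30.8% and 46.2%, median -0.20). Of 13 tested Klf genes, 5 were higher and 6 lower (38.5% and 46.2%, median -1.12). Zscan and Zkscan genes are named for a SCAN domain, which lets proteins pair. Of 10 Zscan genes, 1 was higher and 7 lower (10.0% and 70.0%, median -0.82). Of 9 Zkscan genes, 1 was higher and 7 lower (11.1% and 77.8%, median -0.80). Among 20 tested Zfp genes with a letter after the number, 3 were higher and 10 lower (median -0.69). The symbols also took in Zbtb8os, which encodes no zinc finger and had no call, and Zfp36l1 and Zfp36l2, messenger RNA decay factors like Zfp36, both lower. Without them the Zbtb counts were the same (median -0.25) and the lettered genes had 3 higher and 8 lower of 18 (median -0.57). With edgeR, 33 of 39 Zbtb, 7 of 14 Klf and 9 of 10 Zscan genes were lower, and 4, 5 and 1 higher. All 9 Zkscan and 20 of 21 lettered Zfp genes were lower with edgeR, and 0 and 0 higher. Of all genes listed, 50.1% were lower and 13.5% higher with edgeR. The difference from the Zfp members was not tested.

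Promoters were read for what the members share in sequence. RefSeq start sites of GRCm38.p6 were given for 256 members and 27025 genes, and 250 bases before each start were searched on both strands. The NF-kappaB consensus stood in 8 members' promoters (3.12%, against 3.75% of all genes), the interferon response core (GAAA, any pair of bases, GAAA) in 5 (1.95% against 3.04%) and the AP-1 site TGACTCA in 8 (3.12% against 4.43%). The NF-kappaB consensus was in 4 of 43 promoters of members higher at 4 h and in 2 of 149 of those lower (9.30% and 1.34%). That contrast rests on the DESeq2 calls, since of the 4 higher members edgeR called Zfp131 higher, Zfp148 and Zfp617 lower and Zfp429 neither, so that with edgeR it was in 1 of 23 promoters of higher and 5 of 216 of lower members (4.35% and 2.31%). Zfp131, with a log2 change of 1.72 at 4 h, is among the 4, and its window is shown with the match in capitals.
Zfp131 (chr13:119790733-119790982, minus strand): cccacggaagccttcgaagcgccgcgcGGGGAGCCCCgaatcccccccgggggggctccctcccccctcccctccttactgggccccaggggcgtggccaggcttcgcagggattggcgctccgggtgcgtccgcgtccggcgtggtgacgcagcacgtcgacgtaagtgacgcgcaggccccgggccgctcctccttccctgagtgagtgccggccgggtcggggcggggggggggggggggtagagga

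The STAT pattern TTCNNNGAA was found in 44 members' promoters (17.2%), against 7.18% of all genes. A longer string stood out on reading these windows, the core (ACTACA, any pair of bases, TCCC) of the motif bound by Zfp143 and its human counterpart ZNF143, and it was added to the search for that reason. It stood in 46 members' promoters (18%), against 490 of 27025 (1.81%), and the STAT pattern overlaps it in 14 members. Among KRAB members 38 of 163 held the core (23.3%), and among members without the box 8 of 93 (8.60%). Many of these promoters belong to neighbouring duplicates and are not independent. The windows below are shown so that the shared string can be seen. They come from 8 members lower at 4 h and from the 4 that were higher with DESeq2, read on the strand that spells the core, which is in capitals. All 8 windows of lower members are ones in which the STAT pattern overlaps the core, which held for 14 of the 46 members. The bases after the core are therefore not shared by all 46.
Zfp111 (chr7:24208190-24208225, plus strand): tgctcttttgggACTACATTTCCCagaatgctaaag
Zfp109 (chr7:24237700-24237735, plus strand): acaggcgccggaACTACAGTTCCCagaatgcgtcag
Zfp108 (chr7:24254714-24254749, minus strand): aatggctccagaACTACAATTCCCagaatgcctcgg
Zfp93 (chr7:24270334-24270369, minus strand): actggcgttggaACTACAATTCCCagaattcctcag
Zfp84 (chr7:29768517-29768551, minus strand): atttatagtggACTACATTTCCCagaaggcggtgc
Zfp790 (chr7:29815956-29815991, minus strand): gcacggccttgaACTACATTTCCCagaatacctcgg
Zfp383 (chr7:29908464-29908499, plus strand): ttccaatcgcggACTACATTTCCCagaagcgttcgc
Zfp85 (chr13:67755203-67755230, plus strand): agagACTACATTTCCCagaagtctacgc
Zfp260 (chr7:30095035-30095070, minus strand): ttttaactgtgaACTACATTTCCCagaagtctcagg
Zfp429 (chr13:67399815-67399850, plus strand): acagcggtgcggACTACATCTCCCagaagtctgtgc
Zfp455 (chr13:67194438-67194473, minus strand): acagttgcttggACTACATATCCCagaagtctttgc
Zfp456 (chr13:67375809-67375844, plus strand): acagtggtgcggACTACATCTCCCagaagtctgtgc

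Of the 46 members with the core, 4 were higher and 31 lower at 4 h in the authors' deposited DESeq2 columns (8.70% and 67.4%, median -0.83). Of the 204 tested members whose promoter lacked it, 39 were higher and 118 lower (19.1% and 57.8%, median -0.69). Of all tested genes, 31.8% were higher and 31.0% lower at 4 h. At 24 h 5 with the core were higher and 21 lower (median -0.44), against 45 and 81 of 202 without it (median -0.20). Of all tested genes, 32.4% were higher and 32.2% lower at 24 h. At 3 d 4 of 46 with the core were higher and 6 lower, against 35 and 54 of 202 without it. Of all tested genes, 29.5% were higher and 25.8% lower at 3 d. The share lower with DESeq2 was thus below that of all tested genes for members with the core. For members without the core it was near that share (26.7%). With edgeR 21 of the 46 and 105 of the 210 were lower at 3 d, against 27.7% of all genes listed. Zfp108, with 2 cores, had -2.71 at 4 h, Zfp111 -1.47 and Zfp383 -1.46. The 4 higher members, Zfp456 (0.95), Zfp429 (0.81), Zfp455 (0.63) and Zfp260 (0.52), were not higher with edgeR, which called Zfp455 and Zfp260 lower. At 4 h the core was thus found in promoters of members called higher and of members called lower with DESeq2. With edgeR 0 of the 46 were higher and 44 lower, and of the 210 without the core 23 and 172. Of all genes listed, 13.5% were higher and 50.1% lower with edgeR at 4 h. A match says only that the letters are there.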

How the data were processed

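The 3 deposited tables give, per gene, the values the authors computed for 1 MPLA group against the controls. Per the file headers these are log2 fold changes with raw and adjusted p-values from DESeq2 and from edgeR, an unscaled log2 ratio, and baySeq's likelihood score with its adjusted form. Tools listed in the submitters' processing notes are TopHat2, HTSeq, bcl2fastq, DESeq, DESeq2 and edgeR, with the build mm10. Counting settings and the use of strand are not given in the sources used here. Reads of near-identical members, and of genes that overlap on opposite strands, may therefore be split in ways not known here.

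The deposited log2 values are control over MPLA. Their sign was turned here, as Il6, Tnf, Il1b, Cxcl10 and Nos2, all known to be induced by lipid A, were negative as deposited (-12.55 for Il6 at 4 h). A member was called at a DESeq2 adjusted p under 0.05, adjusted by the authors over all genes of a table, and members without an adjusted p are not tested. The edgeR quasi-likelihood fit needs counts and was not run. The tables hold no standard errors, levels or depths. The near-constant gap between the log2 of edgeR, run by the authors, and the unscaled ratio puts summed MPLA depth at 0.859, 0.934 and 2.32 times that of controls at 4 h, 24 h and 3 d.

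Members and lists were chosen with earlier results of these data known, and the ZNF143 core, the use of translated coding sequences, the family counts without Zbtb8os, Zfp36l1 and Zfp36l2, and the NF-kappaB counts by edgeR call of the authors were chosen after seeing the data. Named were the 8 highest and 8 lowest members at each time with reads in both groups and the same call in the DESeq2 and edgeR columns of the authors, every member of 6 role lists, and called members listed at 0 in 1 group. Other genes named as examples in the runs and among promoters were chosen after their values were seen. GENCODE M21 gave positions, exon overlap, 50-base windows shared with other genes, and coding sequences, which were searched for C2H2 fingers by pattern and for a KRAB box with a pyhmmer 0.12.3 profile built from 141 members' sequences (E-value under 0.001). Of the 256 RefSeq starts, 207 were found in a GENCODE transcript of the gene. The adjustment and patterns were tested on simulated data. Alternatives were the edgeR and baySeq columns of the authors, the edgeR values less their median, another adjustment, stricter limits and leaving out members with over 10% shared windows.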

Additional observations from a re-analysis of the deposited data

How the results depend on the processing

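No paired analysis was possible because the deposited tables hold no values per library, and leaving out each replicate was not run for the same reason. The count of members higher at 4 h was 47, against 23 with edgeR, 23 with all 3 tools together and 25 with a 2-fold minimum, and the count lower was 183, against 109 with that minimum. At 24 h 62 were higher, against 29 with edgeR, 39 with baySeq, 29 with all 3 tools and 11 at 2-fold, and 125 were lower, against 221 with edgeR and 35 at 2-fold. At 3 d 44 were higher, against 17 with baySeq, 17 with all 3 tools, 6 at 2-fold and 26 at adjusted p under 0.01, and 79 were lower, against 156 with edgeR, 13 with baySeq, 13 with all 3 tools and 8 at 2-fold. The remaining alternatives kept these counts within 1.5 times. The median member moved to -1.67, -0.68 and -0.21 with edgeR, to -1.89 and -0.75 at 4 h and 24 h with the unscaled ratio, and turned to 1.01 at 3 d with that ratio, which carries the deeper MPLA libraries. Relative to the median of all genes, edgeR gave -0.70, -0.21 and -0.06.

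With edgeR the sign turned for Zfp148 (-0.73, -0.36 and -0.10 at 4 h, 24 h and 3 d), Zfp335 (-0.81 and -0.066 at 4 h and 24 h), Zfp592 (-0.43 and -0.061 at 4 h and 24 h), Zfp39 (-0.62), Zfp407 (-0.52) and Zfp91 (-0.64) at 4 h, for Zfp292 (-0.31), Zfp346 (-0.07), Zfp384 (-0.31), Zfp568 (-0.28), Zfp687 (-0.39), Zfp830 (-0.049) and Zfp932 (-0.30) at 24 h, and for Zfp207 (-0.037), Zfp384 (-0.021) and Zfp638 (-0.0302) at 3 d. Turns of sign were counted only where DESeq2 or edgeR called the member at that time. With edgeR less its median none of the 65 named members changed sign at a time when DESeq2 called it. Members without a call were not counted, and those near 0 may have changed sign. The tables give no level or depth by which to judge how sure the folds of Zfp819, Zfp37 and Zfp300 are, and a member without a call may have changed by an amount these libraries could not show.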
